A study of Homo sapiens with 48 samples.

Results

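Epidermal growth factor (EGF) alone raised a small set of genes within 6 h in HEK293 cells, and its 3 largest rises among genes above 5 CPM were those of the transcription factors ETV4, ETV5 and EGR1. HEK293 is a human embryonic kidney cell line. The cells were 1 clone, obtained by limiting dilution, with a stable transgene for AT1R, through which angiotensin II (AII) acts. It came from co-transfection with a puromycin resistance plasmid and selection with puromycin in the presence of losartan, a blocker of AT1R. Serum was withdrawn before the stimulus, and the cells then received 10 µg/L EGF (EGF 6 h) or no stimulus (control 6 h) for 6 h. Both groups thus share the clone, the receptor and the serum-free medium and differ by label in the stimulus only. The other groups of the study are AII (1 nM) and AII+EGF at 6 h and the same 4 conditions at 24 h. Gene expression was measured by sequencing poly(A) RNA in 48 libraries, 6 for each group. The comparison here uses 7 of these 48 libraries, chosen by their sample labels: EGF replicates 3, 4 and 5 (n = 3) and control replicates 3, 4, 5 and 6 (n = 4). Left out were control replicates 1 and 2 and EGF replicates 1, 2 and 6, because each differed from another library of the table by less than the sampling noise of the counts.

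EGF binds EGFR, a receptor tyrosine kinase, which activates RAS, RAF, MEK and the MAP kinases of the ERK type. ERK phosphorylates ternary complex factors, ETS proteins that sit with serum response factor (SRF) at serum response elements and switch on immediate-early genes such as FOS and EGR1. The products of these genes, together with newly made ETS factors, act on later genes, while phosphatases, Sprouty and SPRED proteins and NAB corepressors dampen the signal. EGFR also activates the PI3K-AKT pathway, which keeps FOXO factors out of the nucleus.

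The 4 control libraries held 18997424 to 22709728 counts and the 3 EGF libraries 28027446 to 29956472, so EGF and depth moved together. Of 60610 listed genes, 19683 passed the filter on low counts. Levels are given in CPM, counts relative to the library total scaled with TMM factors, in the order of control replicates 3, 4, 5 and 6 and EGF replicates 3, 4 and 5. Changes are log2 differences, EGF minus control, with a standard error (SE) and a Benjamini-Hochberg adjusted p of edgeR's quasi-likelihood test over all tested genes. Calls required 3 things: an adjusted p under 0.01, 1.5-fold or more, and more than 5 CPM on average. That average was taken over the EGF libraries for rises and over the controls for falls. Nothing in the labels says that replicates came from separate cultures, so the p-values measure the spread between these libraries, which may be technical. In bulk RNA, a change in the number of cells that express a gene and a change in its level per cell cannot be told apart.

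Libraries of the other groups went against their labels, and they shared the estimate of the spread. Sample titles are numbered in sequence, and stretches of consecutive titles that go once through the 4 conditions at 1 time were taken here as blocks, called runs 1 to 8. The labels do not record them as batches. Libraries of runs 7 and 8 stood apart in ETV5 and EGR1. ETV5 was at 5.57 to 9.5 CPM in 5 libraries labelled AII 6 h and at 50.7 CPM in the library labelled AII 6 h replicate 6. It was at 78.3 to 91.4 CPM in 4 libraries labelled AII+EGF 6 h and at 7.57 CPM in the library labelled replicate 6 of that group. At 24 h, 4 libraries labelled EGF held 12.2 to 16.7 CPM of ETV5 and the library labelled EGF 24 h replicate 6 held 1.33 CPM, against 0.696 to 1 CPM in the 6 controls of that time. Control 6 h replicate 6 belongs to run 7 and is one of the 7 libraries compared. Its level of ETV5 lay among those of the other controls, and across genes its log2 levels correlated with theirs at r = 0.989 to 0.993, against up to 0.996 among the other controls (a description over genes, which are not replicates). The main results below come from 1 fit over 40 libraries, runs 7 and 8 included, and the counts of calls are also given without these runs or in a fit of the 7 libraries alone.

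**Figure D1:**
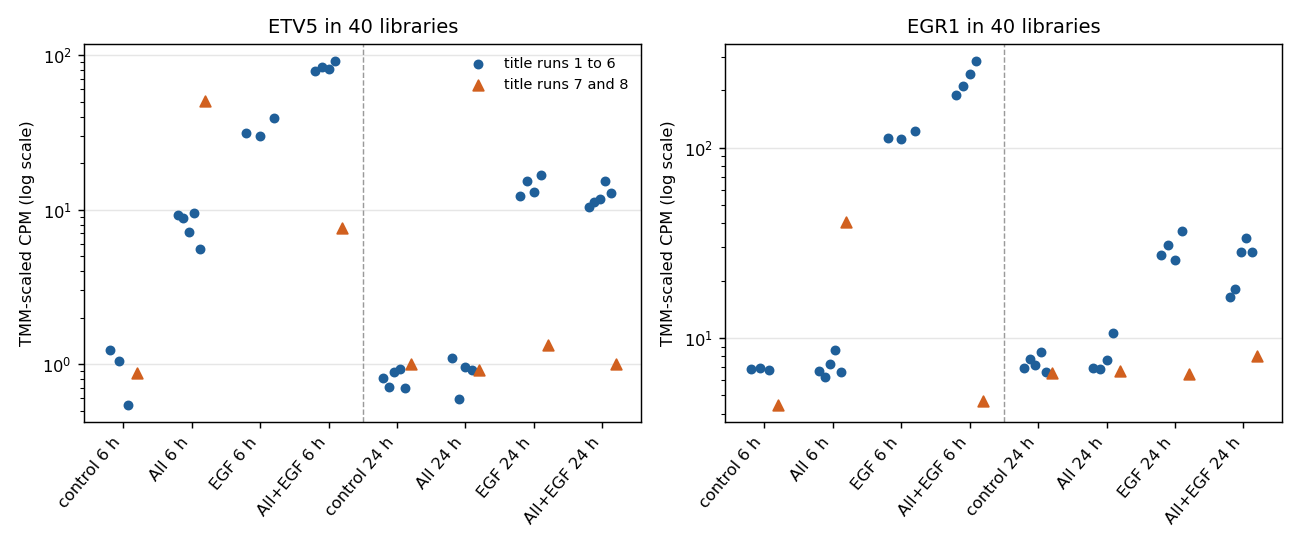
ETV5 (left) and EGR1 (right) in TMM-scaled CPM on a log scale, 1 point per library, for the 40 libraries outside near-identical pairs, by labelled group. Orange triangles are libraries of title runs 7 and 8: at 6 h the triangle labelled AII lies above the other AII libraries and the triangle labelled AII+EGF below the other AII+EGF libraries.

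EGF raised 118 of the 19683 genes (0.6%) and lowered 3 (0.0152%). At an unadjusted p under 0.05, 1722 genes (8.75%) were higher and 1087 (5.52%) lower, and the counts of list members at that threshold below are to be read against these shares. Of the rises, 60 exceeded 2-fold, 14 exceeded 4-fold and 8 exceeded 8-fold, with a median log2 change of 1.02 against -0.01 over all tested genes. Most were protein-coding genes (114), and 3 were lncRNAs. In all 118 the 3 EGF libraries lay above the 4 controls, as they did in 13.2% of all tested genes, and in all 3 falls they lay below, as in 8.87% of all genes. The calls were made on these same libraries, so this separation largely follows from the calls and gives no further support. Counts of list members with all EGF libraries above or below the controls are to be read against 13.2% and 8.87%. Runs 4 and 5 each hold EGF and control libraries. Groups that do not overlap fix the sign of the difference within each run in advance. It held in 118 of 118 rises and 3 of 3 falls, which is no further test. Over all genes, 30.2% lay above 0 and 28.7% below 0 in both runs.

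The number of calls differed with the libraries that shared the estimate of the spread. The common biological coefficient of variation, edgeR's measure of that spread, was 0.181 over the 40 libraries, 0.147 without runs 7 and 8 and 0.122 over the 7 libraries alone. Without runs 7 and 8, a fit of 33 libraries called 306 genes higher (1.58% of 19369 tested) and 75 lower (0.387%), and it shared 112 rises and 3 falls with the main fit. When the 7 compared libraries stayed in and only the libraries of runs 7 and 8 from other groups were dropped, 345 rose and 104 fell. The 7 libraries alone gave 302 rises (1.78% of 16955 tested) and 82 falls (0.484%), of which 108 and 3 were shared with the main fit. Leaving out 1 of the 7 libraries from the main fit lowered the number of calls from 121 to between 46 (without control replicate 6) and 75 (without control replicate 4).

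A further EGF sample that the comparison did not use lay on the same side of the controls for most calls. EGF replicates 2 and 6 differed from each other by less than sampling noise and were summed as 1 sample. Replicate 2 is of run 1 and replicate 6 of run 7. The sample lay above all 4 controls in 116 of the 118 rises (28.2% of all tested genes) and below all 4 controls in 3 of 3 falls (22.3% of all tested genes). Its median log2 difference from the controls was 0.82 over the 118 rises and 0.01 over all genes. Its level was near that of the EGF libraries used for ETV5 (34.1 CPM) and below it for EGR1 (49 CPM, against 113, 112 and 122 CPM) and GPR50 (11.8 CPM, against 27.4, 25.7 and 23.5 CPM). Of the 82 falls of the 7-library fit, it lay below all controls in 76. The same 4 controls entered the calls, which favours these sides in advance, and the shares over all genes do not carry that choice. The counts are thus not an independent check.

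**Figure D2:**
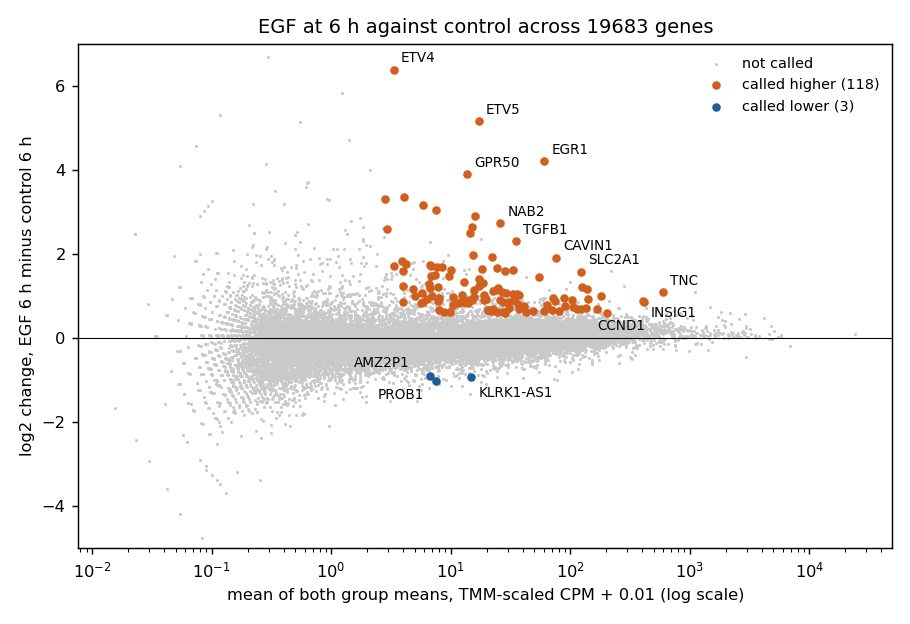
Log2 change (EGF 6 h minus control 6 h) against the mean level in TMM-scaled CPM + 0.01 (log scale) for 19683 genes, 1 point per gene. The 118 called rises (orange) lie above 0 and the 3 called falls (blue) have log2 changes near -1.

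EGR1, EGR3 and NAB2 were among the 15 largest called rises, and EGR1 had the highest EGF level of these 15. EGR1 (early growth response 1, ENSG00000120738, chr5:138465479-138469303) is a zinc-finger factor switched on by SRF and ETS proteins. It stood at 6.9, 6.92, 6.77 and 4.44 CPM in the controls and 113, 112 and 122 CPM under EGF. The 3 EGF libraries were close together and far above every control, with a log2 change of 4.21 ± 0.67 (SE; adjusted p = 2.16e-04). EGR3, a related factor, stood at 1.93, 1.82, 1.46 and 1.23 CPM in the controls and 13, 13.5 and 13.4 CPM under EGF. NAB2 (ENSG00000166886, chr12:57089114-57095476), which binds EGR proteins and represses their activity, stood at 8.45, 7.1, 6.07 and 5.63 CPM in the controls and 45.5, 42.5 and 47.2 CPM under EGF. Neither gene's groups overlapped, and the log2 changes were 3.05 ± 0.58 (SE; adjusted p = 0.00185) for EGR3 and 2.73 ± 0.40 (SE; adjusted p = 7.61e-05) for NAB2. NAB2 overlaps the end of STAT6, whose mean was 39.5 CPM in the controls and 34.4 CPM under EGF. Of the 5 tested members of this list 3 rose, with a median log2 change of 2.73. EGR2 had a log2 change of 2.37 ± 0.51 (SE; adjusted p = 0.00653) but stayed under 5 CPM in all 7 libraries compared. NAB1 was at 61.1, 56.9, 71.1 and 66.2 CPM in the controls and 60, 60 and 57.4 CPM under EGF, with a log2 change of -0.11 ± 0.12 (SE; adjusted p = 0.732), and its groups overlapped.

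The promoters of EGR1, NAB2, TGFB1 and B3GAT1, all among the 15 largest called rises, are shown because they hold the letters of motifs known for SRF or for EGR proteins. Each window runs from 250 bases before to 50 after the start site and was taken from RefSeq (GRCh38.p14), written 5′ to 3′ on the gene's strand. EGR1 (chr5:138465229-138465528, plus strand) held 2 CArG boxes, the core of serum response elements, in capitals, the first letter of the nearer one lying 83 bases before the start. NAB2 (chr12:57088864-57089163, plus strand), TGFB1 (chr19:41353873-41354172, minus strand) and B3GAT1 (chr11:134412193-134412492, minus strand) held 1, 2 and 3 matches to the EGR motif (GCGGGGGCG or GCGTGGGCG on either strand), also in capitals. B3GAT1, with means of 0.824 CPM in the controls and 5.02 CPM under EGF, was called in the main fit and missed the 5 CPM minimum in the fit of the 7 libraries and the one without runs 7 and 8. Its log2 change there was 2.57 (adjusted p = 1.65e-05) and 2.55 (adjusted p = 4.33e-06).
EGR1: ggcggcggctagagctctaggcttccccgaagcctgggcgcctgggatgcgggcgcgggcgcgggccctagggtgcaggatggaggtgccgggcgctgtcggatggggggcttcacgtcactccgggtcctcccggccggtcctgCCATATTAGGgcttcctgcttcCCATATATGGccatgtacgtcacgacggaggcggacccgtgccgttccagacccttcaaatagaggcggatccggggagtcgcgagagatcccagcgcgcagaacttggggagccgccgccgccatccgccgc
NAB2: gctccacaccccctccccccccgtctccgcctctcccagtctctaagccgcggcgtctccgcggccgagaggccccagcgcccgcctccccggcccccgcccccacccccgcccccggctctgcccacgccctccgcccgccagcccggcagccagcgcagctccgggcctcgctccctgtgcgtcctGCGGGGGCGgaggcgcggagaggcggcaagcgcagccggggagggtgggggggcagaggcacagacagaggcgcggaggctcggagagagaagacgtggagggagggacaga
TGFB1: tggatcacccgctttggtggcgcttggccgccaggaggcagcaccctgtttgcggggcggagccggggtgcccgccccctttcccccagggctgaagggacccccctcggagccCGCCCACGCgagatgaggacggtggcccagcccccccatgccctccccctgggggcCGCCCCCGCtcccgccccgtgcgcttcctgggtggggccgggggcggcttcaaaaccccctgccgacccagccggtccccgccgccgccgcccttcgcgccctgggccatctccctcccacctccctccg
B3GAT1: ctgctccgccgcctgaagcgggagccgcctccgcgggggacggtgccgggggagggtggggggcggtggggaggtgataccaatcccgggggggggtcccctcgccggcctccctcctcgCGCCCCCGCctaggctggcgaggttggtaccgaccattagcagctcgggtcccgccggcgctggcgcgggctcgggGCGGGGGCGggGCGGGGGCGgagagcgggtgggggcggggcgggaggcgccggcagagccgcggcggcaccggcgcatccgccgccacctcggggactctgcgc

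Of the 118 rises, 91 had a promoter in the reference table, and 24 of these (26.4%) held the EGR motif, against 1179 of 12658 promoters of tested genes (9.31%). The promoters of the rises were also richer in G and C, with a median of 71.3% against 65.0%, and the part of base composition in the difference was not tested. The ETS motif CCGGAAGT was in 0 of the 91 and in 7.84% of all. The CIC motif (TGAATGAA or TGAATGGA) was in 2 of the 91 (1.8% of all), the AP-1 motif TGACTCA in 5 (3.11%), the CRE TGACGTCA in 3 (3.14%), the E-box CACGTG in 7 (9.82%), the FOXO motif GTAAACA in 4 (2.46%) and a CArG box in 1, that of EGR1 (1.02%). All were searched on both strands. Such matches describe letters in these windows and do not show binding.

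ETV4 and ETV5 of the PEA3 group of ETS factors, which act downstream of ERK, had the largest log2 changes among called genes. ETV5 (ENSG00000244405, chr3:186046314-186109089) stood at 1.23, 1.05, 0.542 and 0.879 CPM in the controls and 31.5, 29.9 and 39 CPM under EGF, a log2 change of 5.17 ± 0.76 (SE; adjusted p = 9.55e-05). ETV4 (ENSG00000175832, chr17:43527846-43546340) was near 0 without EGF, with 0.0535, 0.137, 0.108 and 0 CPM in the controls and 5.51, 6.21 and 8.13 CPM under EGF. The 4 controls held 6 counts of ETV4 in all and the 3 EGF libraries 518, which gives a ratio of 90.3 with an exact 95% counting interval of 41.2 to 247 (counting error only), and the fitted log2 change was 6.39 ± 1.15 (SE; adjusted p = 9.37e-04). The third member, ETV1, stood at 0.16, 0.182, 0.271 and 0.352 CPM in the controls and 3.89, 4.23 and 3.72 CPM under EGF, with a log2 change of 3.99 ± 0.63 (SE; adjusted p = 2.05e-04), and was not called because its EGF mean lay under 5 CPM. All 3 members had EGF libraries above every control. CIC, a repressor of these genes that ERK inactivates, was at 78.6, 95.6, 82 and 93.8 CPM in the controls and 72.8, 73.3 and 79.9 CPM under EGF, with a log2 change of -0.22 ± 0.14 (SE; adjusted p = 0.49).

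**Figure D3:**
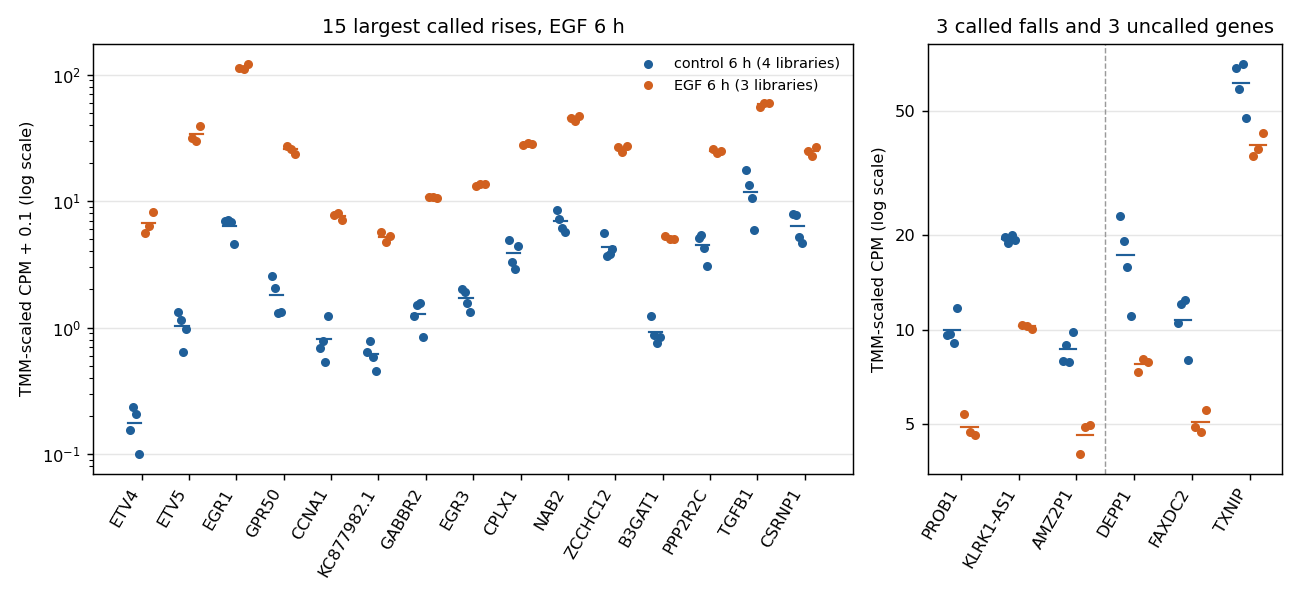
Levels of the 15 largest called rises (left, TMM-scaled CPM + 0.1) and of the 3 called falls with DEPP1, FAXDC2 and TXNIP, which were not called (right, TMM-scaled CPM), on log scales. Each point is 1 library and each short line a group mean: in all 21 genes the 3 EGF libraries lie on one side of the 4 controls.

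Feedback inhibitors of the pathway rose in part. SPRED2 and SPRED1, membrane proteins that hold back RAS signalling with neurofibromin, were both expressed without EGF. SPRED2 stood at 15, 17.8, 16.7 and 15.5 CPM in the controls and 49.1, 50.5 and 51.6 CPM under EGF. SPRED1 stood at 14.4, 14.5, 15.2 and 13.5 CPM in the controls and 31, 32 and 30.3 CPM under EGF. Both pairs of groups were well apart, with log2 changes of 1.63 ± 0.26 (SE; adjusted p = 2.63e-04) for SPRED2 and 1.11 ± 0.23 (SE; adjusted p = 0.00361) for SPRED1. SPRY4, a Sprouty inhibitor, had 3 counts in the 4 controls and 189 in the 3 EGF libraries, a ratio of 65.9 (exact 95% counting interval 22.2 to 323), but at 2.31, 2.13 and 2.8 CPM under EGF it stayed below the abundance minimum. SPRY2 stood at 11.2, 9.24, 10.5 and 8.57 CPM in the controls and 18.3, 19.1 and 21.9 CPM under EGF, with a log2 change of 1.00 ± 0.27 (SE; adjusted p = 0.0357). Of the 7 tested Sprouty and SPRED genes 2 were called in the main fit and 4 in the 7-library fit. All EGF libraries lay above the controls in 5 of the 7 (13.2% of all tested genes).

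Among the dual-specificity phosphatases, which remove phosphate from MAP kinases, 1 of 9 was called. DUSP4, a nuclear ERK phosphatase, stood at 9.41, 8.51, 7.97 and 6.95 CPM in the controls and 15.6, 15.8 and 18.9 CPM under EGF, with a log2 change of 1.03 ± 0.22 (SE; adjusted p = 0.00565). DUSP6, the cytoplasmic ERK phosphatase, had a log2 change of 1.96 ± 0.42 (SE; adjusted p = 0.00552) but reached only 1.66, 1.83 and 1.96 CPM under EGF. DUSP5 stood at 3.85, 4, 3.25 and 3.3 CPM in the controls and 8.91, 8.58 and 10.8 CPM under EGF (log2 change 1.39 ± 0.33 SE, adjusted p = 0.017) and was called in the 7-library fit, where 2 of the 9 passed. The list's median log2 change was 0.28, and 7 of the 9 genes had all EGF libraries above the controls (13.2% of all tested genes).

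In the main fit 1 AP-1 subunit and 1 other immediate-early gene were called at 6 h, where 0.6% of all tested genes were called higher. Of 12 AP-1 genes, BATF3, a basic leucine zipper partner of JUN, was the only one called in the main fit, at 4.23, 2.46, 2.93 and 3.12 CPM in the controls and 11, 9.38 and 11 CPM under EGF (log2 change 1.72 ± 0.38 SE, adjusted p = 0.00791). The 7-library fit called 5 of the 12 (1.78% of all genes tested there were called higher) and the fit without runs 7 and 8 called 6 (1.58%). FOS was low throughout, at 1.98, 2.64, 1.84 and 2.07 CPM in the controls and 7.56, 6.14 and 8.4 CPM under EGF (log2 change 1.78 ± 0.47 SE, adjusted p = 0.0333), and its groups did not overlap. JUN, at 517, 546, 454 and 612 CPM in the controls and 436, 451 and 445 CPM under EGF, had a log2 change of -0.26 ± 0.13 (SE; adjusted p = 0.34) and was lower in all 3 EGF libraries. The median of the list was 0.47.

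Of 27 other immediate-early genes 1 was called, CSRNP1, a nuclear factor, at 7.86, 7.6, 5.09 and 4.57 CPM in the controls and 24.6, 22.5 and 26.7 CPM under EGF (log2 change 1.97 ± 0.38 SE, adjusted p = 0.00225). The 7-library fit called 4. ARC, an activity-regulated cytoskeletal protein, stood at 6.74, 6.19, 5.15 and 5.06 CPM in the controls and 30.2, 27.8 and 31.7 CPM under EGF, well apart between the groups, yet its log2 change of 2.37 ± 0.71 (SE; adjusted p = 0.0688) did not pass in the main fit, and it was called in the 7-library fit. MYC, at 715, 723, 585 and 599 CPM in the controls and 538, 550.4 and 561 CPM under EGF, had a log2 change of -0.25 ± 0.14 (SE; adjusted p = 0.431), with all EGF libraries below the controls. In this list of 27, 16 genes had all EGF libraries above the controls (13.2% of all tested genes) and 3 below (8.87%).

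Neither the receptor nor the kinases of the cascade were called in the main fit. EGFR, the receptor of EGF, stood at 16.9, 23, 19.8 and 17.3 CPM in the controls and 31.7, 35.7 and 29.8 CPM under EGF, with a log2 change of 0.75 ± 0.18 (SE; adjusted p = 0.0191), and was called in the 7-library fit, in the fit without runs 7 and 8 and by DESeq2 over the 40 libraries. ERBB2, its partner, was at 77.2, 79.1, 74.3 and 74.2 CPM in the controls and 83.4, 84.3 and 92.5 CPM under EGF (log2 change 0.19 ± 0.10 SE, adjusted p = 0.414). Of the 12 ERBB receptors and inhibitors edgeR called 0 in the main fit, with 1 at an unadjusted p under 0.05, and DESeq2 called 1 (EGFR). Among 8 tested EGF-family ligands and sheddases 0 were called by edgeR or DESeq2, with 1 higher at an unadjusted p under 0.05, and HBEGF was at 3.48, 3.28, 3.69 and 3.12 CPM in the controls and 4.55, 4.73 and 5.02 CPM under EGF. Of 23 RAS-ERK kinases and adaptors 0 were called by either tool, with 3 higher at an unadjusted p under 0.05 and a median log2 change of 0.07.

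**Figure D4:**
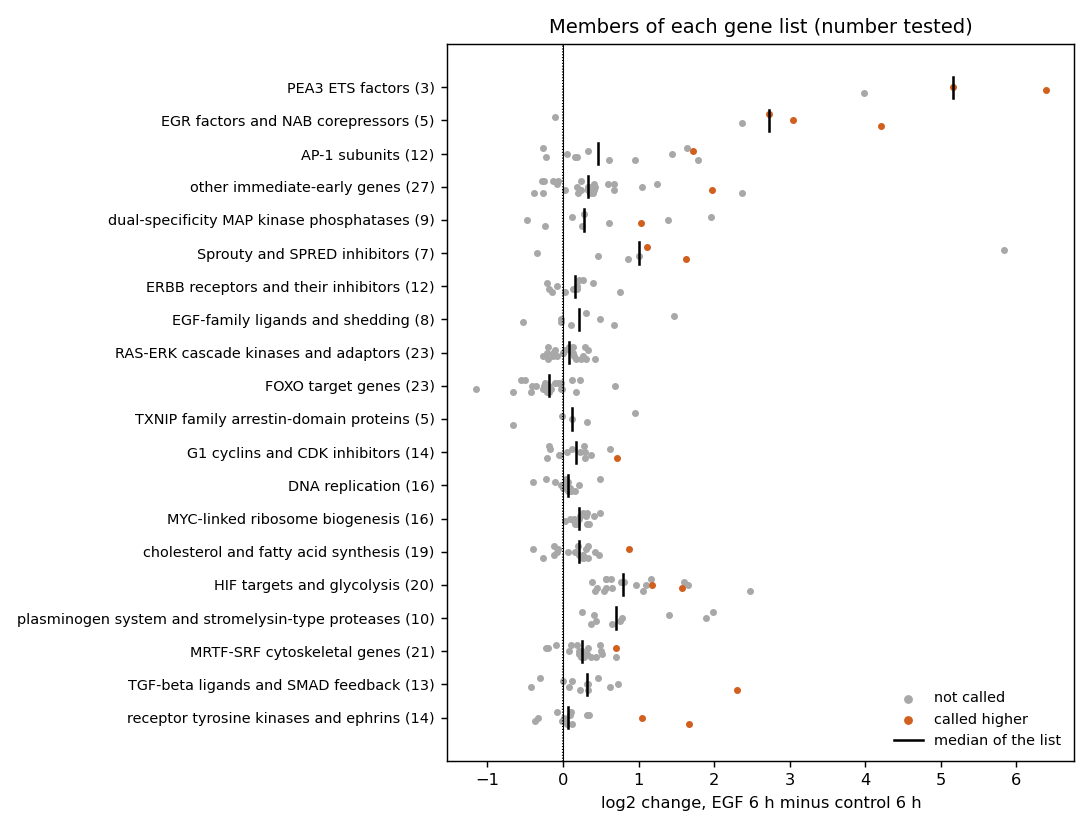
Log2 change (EGF 6 h minus control 6 h) of each tested member of 20 gene lists, 1 point per gene, with the number tested in brackets, a black bar for the list's median and orange for called rises. The PEA3 and EGR lists lie furthest to the right, the HIF and glycolysis list lies wholly above 0 with 2 called genes, and the FOXO list has a median below 0.

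In the list of targets of hypoxia-inducible factors (HIF) and glycolysis genes, the median log2 change was 0.79. Of its 20 genes, 19 had all EGF libraries above the controls (13.2% of all tested genes). SLC2A1, the glucose transporter GLUT1, stood at 73.4, 69, 58.6 and 47 CPM in the controls and 175, 192 and 189 CPM under EGF (log2 change 1.58 ± 0.32 SE, adjusted p = 0.00289). PFKP, the platelet form of phosphofructokinase, stood at 86.8, 97.5, 70.1 and 85.7 CPM in the controls and 191, 191 and 194 CPM under EGF (log2 change 1.18 ± 0.26 SE, adjusted p = 0.00912). In both, the EGF libraries were well above every control. HK2, hexokinase 2, stood at 56.9, 64, 58.5 and 50.1 CPM in the controls and 133, 128 and 125 CPM under EGF (log2 change 1.17 ± 0.28 SE, adjusted p = 0.0154). LDHA, lactate dehydrogenase A, stood at 920.3, 747, 692 and 433 CPM in the controls and 1439.8, 1483 and 1555 CPM under EGF (log2 change 1.10 ± 0.35 SE, adjusted p = 0.1). Both were called in the 7-library fit and not in the main fit. Of 20 genes 2 were called in the main fit, 8 in the 7-library fit and 10 without runs 7 and 8. EPAS1, which encodes HIF-2 alpha, also rose, from 9.41, 10.4, 8.46 and 6.9 CPM to 27.8, 27.9 and 27.3 CPM (log2 change 1.65 ± 0.23 SE, adjusted p = 5.44e-05); it and CAVIN1 below were named after their values were seen. Control replicate 6 was the lowest control in 68 of the 118 rises, against 33.8% of all tested genes, and it was the lowest for SLC2A1, HK2 and LDHA.

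AK4, a mitochondrial adenylate kinase, went from 129.6, 122, 133 and 99.9 CPM to 232, 243 and 247 CPM (log2 change 0.99 ± 0.20 SE, adjusted p = 0.00289), and its near-identical pseudogene AK4P1 was also called, so how reads split between them is uncertain. In the cholesterol and fatty acid list 1 of 19 genes was called. INSIG1, which retains the SREBP cleavage complex in the endoplasmic reticulum, stood at 300.0, 277, 294 and 278 CPM in the controls and 517, 524 and 544 CPM under EGF (log2 change 0.88 ± 0.19 SE, adjusted p = 0.00606). Its EGF libraries lay above every control. HMGCS1, which makes HMG-CoA, was at 535, 535, 583 and 636 CPM in the controls and 836, 788 and 769.5 CPM under EGF (log2 change 0.48 ± 0.22 SE, adjusted p = 0.311) and did not pass the test. In all, 10 of the 19 had EGF libraries above every control (13.2% of all tested genes).

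TNC, the matrix glycoprotein tenascin C, had the largest gain in CPM among called genes. It stood at 380.2, 457, 325 and 356 CPM in the controls and 819, 811 and 800.2 CPM under EGF (log2 change 1.09 ± 0.24 SE, adjusted p = 0.00806). TGFB1, the growth factor TGF-beta 1, rose from levels that varied among controls, 17.4, 13.3, 10.5 and 5.85 CPM, to 55.3, 59.5 and 59.7 CPM (log2 change 2.31 ± 0.48 SE, adjusted p = 0.00422). It was the only one of 13 TGF-beta list members called, and TGFBR2, its receptor, was at 24.9, 23, 26 and 21.9 CPM in the controls and 30.6, 32.7 and 35.3 CPM under EGF (log2 change 0.46 ± 0.14 SE, adjusted p = 0.0781). Of 10 tested plasminogen and protease genes edgeR called 0 in the main fit and 2 in the 7-library fit, DESeq2 called 1, and 4 were higher at an unadjusted p under 0.05. PLAT, tissue plasminogen activator, stood at 30.2, 29.4, 28.1 and 29.2 CPM in the controls and 48, 48.9 and 54.4 CPM under EGF (log2 change 0.79 ± 0.18 SE, adjusted p = 0.0142), above control in each EGF library.

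The adhesion and membrane genes EPHA2, EPHB2, CAVIN1 and VCL rose. EPHA2 and EPHB2, receptor tyrosine kinases for ephrins, were the only called members of a list of 14. EPHA2 stood at 14.6, 13.2, 8.94 and 10.2 CPM in the controls and 34.2, 37.1 and 41.1 CPM under EGF (log2 change 1.67 ± 0.35 SE, adjusted p = 0.00438). EPHB2 stood at 24.8, 24.1, 20.3 and 18.2 CPM in the controls and 46.6, 42.6 and 45.6 CPM under EGF (log2 change 1.04 ± 0.22 SE, adjusted p = 0.00606). Neither receptor's groups overlapped. CAVIN1, which coats caveolae, stood at 38.2, 32.4, 31.9 and 24.5 CPM in the controls and 116, 122 and 120.3 CPM under EGF (log2 change 1.91 ± 0.35 SE, adjusted p = 0.00104). VCL, the focal adhesion protein vinculin, an SRF target, stood at 125, 142, 124 and 122 CPM in the controls and 206, 205 and 214 CPM under EGF (log2 change 0.70 ± 0.13 SE, adjusted p = 0.00124). Of 21 cytoskeletal genes under MRTF and SRF 1 was called, 2 in the 7-library fit. ACTB, beta-actin, was at 2228, 1912, 1592 and 1203 CPM in the controls and 2083, 2228 and 2178 CPM under EGF (log2 change 0.32 ± 0.20 SE, adjusted p = 0.498), and its groups overlapped.

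Cell cycle and growth lists held 1 called gene at 6 h. CCND1, cyclin D1, stood at 104, 104, 111 and 93.6 CPM in the controls and 162, 162 and 183 CPM under EGF (log2 change 0.71 ± 0.13 SE, adjusted p = 0.00114) and was the only called gene of 14 G1 cyclins and inhibitors. CDKN1A, the CDK inhibitor p21, was at 163, 137, 140.2 and 132 CPM in the controls and 211, 211 and 241 CPM under EGF (log2 change 0.63 ± 0.20 SE, adjusted p = 0.0911). Of 16 DNA replication genes 0 were called by edgeR or DESeq2, with 1 higher at an unadjusted p under 0.05 and a median log2 change of 0.07. Of 16 ribosome biogenesis genes 0 were called by either tool, with 4 higher at an unadjusted p under 0.05. However, 9 of the 16 had all EGF libraries above the controls (13.2% of all tested genes). NCL, nucleolin, was at 1756, 1689, 1979 and 1302 CPM in the controls and 2240.3, 2177 and 2263 CPM under EGF (log2 change 0.40 ± 0.16 SE, adjusted p = 0.217).

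Receptors and synaptic genes with control means under 5 CPM were among the largest called rises. GPR50 (ENSG00000102195, chrX:151176584-151182856), an orphan relative of the melatonin receptors, stood at 2.46, 1.96, 1.19 and 1.23 CPM in the controls and 27.4, 25.7 and 23.5 CPM under EGF (log2 change 3.90 ± 0.53 SE, adjusted p = 5.44e-05). GPR50's 3 EGF libraries were far above its controls. MTNR1A, melatonin receptor 1A, was at 0.481, 0.865, 0.542 and 0.659 CPM in the controls and 1.04, 0.534 and 0.613 CPM under EGF (log2 change 0.18 ± 0.32 SE, adjusted p = 0.846), with overlapping groups. GABBR2, a subunit of the GABA-B receptor, stood at 1.12, 1.41, 1.46 and 0.747 CPM in the controls and 10.7, 10.7 and 10.4 CPM under EGF (log2 change 3.16 ± 0.56 SE, adjusted p = 7.47e-04). CPLX1, complexin 1, which regulates vesicle fusion, stood at 4.81, 3.19, 2.82 and 4.31 CPM in the controls and 27.6, 28.8 and 28.3 CPM under EGF (log2 change 2.90 ± 0.53 SE, adjusted p = 0.00104). In none of the 3 rises did the groups overlap. CCNA1, cyclin A1, stood at 0.588, 0.683, 0.434 and 1.14 CPM in the controls and 7.6, 7.89 and 6.94 CPM under EGF (log2 change 3.36 ± 0.65 SE, adjusted p = 0.00213). PPP2R2C, a regulatory subunit of protein phosphatase 2A, stood at 4.97, 5.28, 4.17 and 2.99 CPM in the controls and 25.6, 23.7 and 24.7 CPM under EGF (log2 change 2.503 ± 0.36 SE, adjusted p = 7.61e-05). The rest of the 15 largest called rises were ZCCHC12, a zinc-finger protein (log2 change 2.64 ± 0.40 SE, adjusted p = 1.26e-04), B3GAT1, a glucuronyltransferase (log2 change 2.60 ± 0.53 SE, adjusted p = 0.00352), and KC877982.1 (log2 change 3.31 ± 0.57 SE, adjusted p = 6.68e-04). KC877982.1 missed the 5 CPM minimum in the fit of the 7 libraries and the one without runs 7 and 8, where its log2 change was 3.28 (adjusted p = 5.72e-06) and 3.14 (adjusted p = 1.35e-08).

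Called falls numbered 3 in the main fit, 82 in the 7 libraries alone, 104 without the libraries of runs 7 and 8 outside the 2 groups, 143 with DESeq2 on the 7 libraries and 207 with all 48 libraries, near-identical pairs included. PROB1, a proline-rich protein, stood at 9.63, 9.69, 9.05 and 11.7 CPM in the controls and 5.4, 4.73 and 4.6 CPM under EGF (log2 change -1.03 ± 0.22 SE, adjusted p = 0.00537). It overlaps SPATA24, not called in the main fit (5.45 CPM in the controls, 3.09 CPM under EGF), and without stated strand handling the reads of both genes cannot be told apart. KLRK1-AS1, an antisense RNA over KLRK1, stood at 19.7, 19, 20.1 and 19.4 CPM in the controls and 10.4, 10.3 and 10.1 CPM under EGF (log2 change -0.93 ± 0.21 SE, adjusted p = 0.00827). AMZ2P1, a pseudogene of AMZ2, stood at 7.97, 8.96, 7.91 and 9.85 CPM in the controls and 4.01, 4.88 and 4.95 CPM under EGF (log2 change -0.91 ± 0.19 SE, adjusted p = 0.00541). The same caution on shared reads holds for both. All 3 were called in both the main and the 7-library fit, but leaving out any 1 of the 7 libraries raised the adjusted p to 0.0101 to 0.0501 for PROB1 and to 0.0178 to 0.0584 for KLRK1-AS1. AMZ2P1 stayed under the threshold only without control replicate 3 and was otherwise at 0.0101 to 0.0634.

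The FOXO target list had a median below 0. Of 23 tested genes edgeR called 0 in the main fit (1 higher and 7 lower at an unadjusted p under 0.05, and DESeq2 called 0). The 7-library fit called 2 lower. The median log2 change was -0.18, and 9 had all EGF libraries below the controls (8.87% of all tested genes) and 2 above (13.2%). DEPP1, a FOXO-induced regulator of autophagy, stood at 23, 19.2, 15.9 and 11.1 CPM in the controls and 7.33, 8.08 and 7.9 CPM under EGF (log2 change -1.15 ± 0.41 SE, adjusted p = 0.135). TXNIP, the thioredoxin-interacting protein, which limits glucose uptake, stood at 68.7, 58.5, 70.8 and 47.5 CPM in the controls and 35.9, 37.8 and 42.6 CPM under EGF (log2 change -0.66 ± 0.36 SE, adjusted p = 0.408). Both were lower in every EGF library than in any control and were called lower in the 7-library fit, but not in the main fit. KLHL24 was at 114, 121, 136 and 114 CPM in the controls and 90.6, 100.1 and 83.4 CPM under EGF (log2 change -0.41 ± 0.19 SE, adjusted p = 0.319). ARRDC4, a relative of TXNIP, differed in direction, at 51.3, 45.4, 40.5 and 30 CPM in the controls and 85.2, 81.6 and 74.9 CPM under EGF (log2 change 0.95 ± 0.34 SE, adjusted p = 0.153), and was called higher in the 7-library fit.

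Further falls of the 7-library fit, named after their values were seen, did not pass in the main fit. NTHL1, a DNA glycosylase of base excision repair, stood at 28.1, 21.3, 15.9 and 18.2 CPM in the controls and 7.4, 7.66 and 9.97 CPM under EGF (log2 change -1.32 ± 0.35 SE, adjusted p = 0.0322). KIT, the receptor of stem cell factor, stood at 22.5, 25.1, 23.8 and 23.8 CPM in the controls and 12.2, 12.8 and 13.9 CPM under EGF (log2 change -0.88 ± 0.26 SE, adjusted p = 0.0606). BMF, a BH3-only promoter of apoptosis, stood at 34.6, 36.6, 34.7 and 21.6 CPM in the controls and 14.9, 17.6 and 18 CPM under EGF (log2 change -0.92 ± 0.32 SE, adjusted p = 0.129). In each the EGF libraries lay below all controls. CASD1, a sialic acid acetyltransferase, went from 27.2, 23.8, 28.3 and 27 CPM to 12, 12.8 and 12.8 CPM (log2 change -1.08 ± 0.29 SE, adjusted p = 0.0333). PLCXD1 went from 89.2, 97.2, 103 and 123 CPM to 50.3, 49.6 and 55.3 CPM (log2 change -0.99 ± 0.31 SE, adjusted p = 0.0852) and FAXDC2 from 10.5, 12.1, 12.5 and 8 CPM to 4.9, 4.73 and 5.56 CPM (log2 change -1.08 ± 0.31 SE, adjusted p = 0.0567). Their groups did not overlap either.

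The response at 24 h, which shares no library with that at 6 h, held fewer called genes. In the main fit the test at 24 h called 13 genes higher (0.066%) and 8 lower (0.0406%), and without runs 7 and 8, where 4 EGF and 5 control libraries remained, 82 higher (0.423%) and 42 lower (0.217%). Of the 118 rises at 6 h, 1 (ETV5) was called at 24 h in the main fit and 18 without runs 7 and 8. Their median log2 change at 24 h was 0.20 in the main fit, against -0.01 over all tested genes, and 0.22 without these runs. In these fits 88 and 91 of the 118 lay above 0, and the share of all tested genes above 0 was not counted. ETV5 was at 0.807, 0.714, 0.886, 0.926 and 0.696 CPM in control 24 h replicates 1 to 5 and at 12.2, 15.4, 13 and 16.7 CPM in EGF 24 h replicates 1, 3, 4 and 5. EGR1 in the same libraries was at 6.97, 7.77, 7.18, 8.48 and 6.61 CPM and at 27.4, 30.9, 25.6 and 36.7 CPM. Both were above control in all 4 of these EGF libraries, and EGR1 was below its 6 h level. ETV4 had a log2 change of 5.13 at 24 h in the main fit (adjusted p = 0.00426) but was not called. It held 3.77, 2.72, 3.23 and 4.36 CPM in EGF 24 h replicates 1, 3, 4 and 5, under the 5 CPM minimum.

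The direct test of the 6 h minus the 24 h response called 1 gene higher (0.00508%) and 0 lower (0%) in the main fit, where 1354 and 963 genes reached an unadjusted p under 0.05 with edgeR and DESeq2 called 21 higher and 8 lower. The gene was SCARA3, a scavenger receptor, with a log2 change of 0.63 at 6 h and -0.46 at 24 h, a difference of 1.10 ± 0.17 (SE; adjusted p = 0.00247). Without runs 7 and 8 the test called 163 genes higher (0.842%) and 97 lower (0.501%), and 66 of the 118 rises at 6 h were among the former. In that fit EGR1 fell from a log2 change of 4.06 at 6 h to 2.04 at 24 h (difference 2.02 ± 0.26, SE; adjusted p = 8.93e-06). GPR50 fell from 3.75 to 1.49 (adjusted p = 7.64e-05). GABBR2 fell from 2.97 to -0.49 (adjusted p = 1.89e-08). ETV5 (5.13 and 4.16) gave a difference of 0.97 ± 0.31 (SE; adjusted p = 0.0836). ETV4 gave one of 0.36 ± 0.87 (SE; adjusted p = 0.921). Neither passed.

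**Figure D5:**
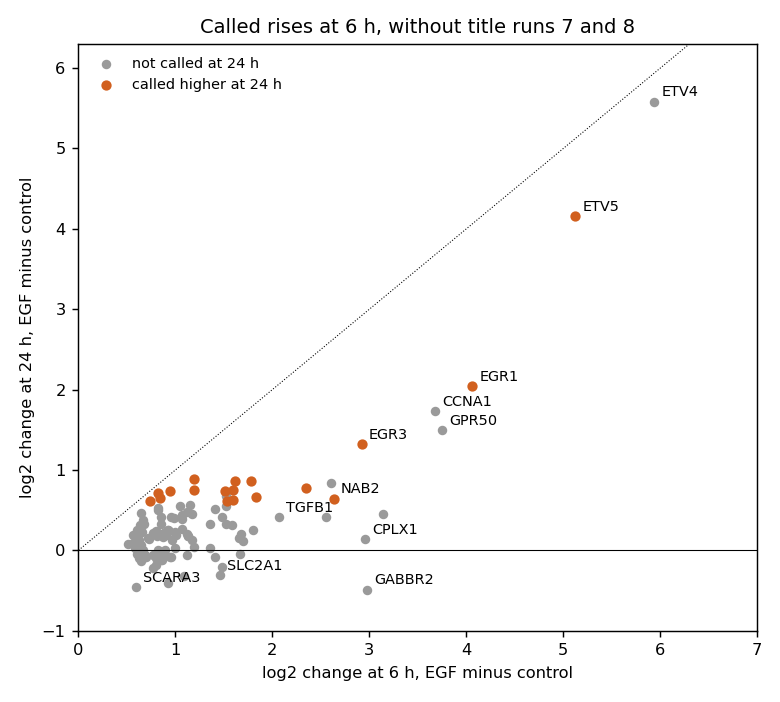
Log2 change at 24 h against log2 change at 6 h (both EGF minus control) of the 118 genes called higher at 6 h, from the fit without title runs 7 and 8, with the line of equal changes dotted. Orange marks the 18 genes also called at 24 h. All points lie below the dotted line, a side that the choice of genes by their 6 h change favours. ETV4 and ETV5 lie nearest to the line among the large changes.

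Compared directly with AII, the other single stimulus, EGF at 6 h left 1 gene higher (0.00508%) and 12 lower (0.061%) in the main fit, and 118 higher (0.609%) and 59 lower (0.305%) without runs 7 and 8, where 5 AII libraries remained. EGR1 was the higher gene of the main fit: it stood at 6.72, 6.23, 7.33, 8.64 and 6.65 CPM in AII 6 h replicates 1 to 5 and at 40.8 CPM in the library labelled replicate 6, against 113, 112 and 122 CPM under EGF. The log2 difference, EGF minus AII, was 3.19 ± 0.55 (SE; adjusted p = 0.00175) and 4.001 ± 0.18 without runs 7 and 8. In the latter fit ETV5 (2.04; adjusted p = 2.40e-11), ETV4 (2.33; adjusted p = 5.55e-09) and GPR50 (2.38; adjusted p = 1.00e-10) were higher under EGF too. Of the 118 rises, 45 were called higher and 1 lower than under AII, and 115 had a log2 difference above 0. These 118 genes were chosen for raised levels in the same EGF libraries, which favours a difference above 0 in advance. The share of all tested genes above 0 was not counted.

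Of these 118, the gene lower than under AII was LBH, a transcriptional cofactor, which EGF raised over control from 10.8, 9.87, 9.81 and 6.55 CPM to 33.6, 33.9 and 38.2 CPM (log2 change 1.93 ± 0.28 SE, adjusted p = 6.97e-05). AII brought it to 81.2 to 95 CPM in replicates 1 to 5. The 5 largest differences in favour of AII in the main fit were OSTN, the peptide hormone osteocrin (log2 -3.18; adjusted p = 3.55e-05), CGA, the alpha subunit of glycoprotein hormones (-2.73; adjusted p = 3.54e-05), the glycine transporter SLC6A9 (-1.84; adjusted p = 3.54e-05), the cystine transporter SLC7A11 (-1.72; adjusted p = 7.42e-04) and LBH (-1.52; adjusted p = 0.00175). Under EGF, OSTN stood at 0.694, 0.877 and 0.805 CPM and CGA at 1.7, 2.1 and 1.76 CPM and overlapped their controls at 1.02, 0.774, 2.11 and 0.616 CPM and 1.18, 1.23, 0.867 and 2.02 CPM.

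None of the markers of the clone and of HEK293 cells was called. AGTR1, the gene of the transfected receptor, stood at 4425, 4205, 4544 and 3975 CPM in the controls and 5120.5, 5479 and 5045 CPM under EGF (log2 change 0.28 ± 0.20 SE, adjusted p = 0.56); the EGF libraries lay above the controls, and the change did not pass the test. Of 6 HEK293 markers 0 were called by edgeR or DESeq2 (2 higher at an unadjusted p under 0.05), and among them PAX2 was low, at 0.749, 0.273, 0.434 and 0.572 CPM in the controls and 1.2, 1.33 and 1.73 CPM under EGF. Of 9 markers of other cell types, PTPRC, CD3E, PECAM1, CDH5, ALB and NPHS1 had at most 4 counts in any of the 7 libraries and were not tested. The other 3 were COL1A1, at 14.4, 14.1, 12.2 and 14 CPM in the controls and 14.3, 14 and 13 CPM under EGF, EPCAM, at 0.374, 0.319, 0.434 and 0.396 CPM in the controls and 0.501, 0.572 and 0.958 CPM under EGF, and KRT14, at up to 0.153 CPM on average, and 0 of them were called by edgeR or DESeq2 (1 higher at an unadjusted p under 0.05).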

How the data were processed

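Poly(A) RNA of a HEK293 clone stably expressing AT1R was sequenced in 48 libraries (8 groups of 6). According to the submitters' processing notes the authors aligned reads with HISAT2 (2.1.0) to hg38 and counted them per gene with featureCounts; strand handling is not given in the sources used here. The deposited table holds raw read counts per Ensembl gene, and 0 of its count columns were left unused.

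Library pairs were compared by a chi-square of their counts over genes with at least 100 counts. In 4 of 1128 pairs it was under 1 per degree of freedom (0.397 to 0.505, the next closest pair 2.02), and their 8 libraries were left out. Pairs crossed groups in 3 of the 4 cases. Genes were filtered with filterByExpr by group, scaled with TMM factors and tested in edgeR 4.0.16 (R 4.3.3) with the quasi-likelihood test over the other 40 libraries. P-values were adjusted by Benjamini-Hochberg over all genes tested. Calls needed an adjusted p under 0.01, at least 1.5-fold and 5 CPM. DESeq2 1.42.0, other factors, filters and library sets served as alternatives, and the fitting scripts were tested on simulated data. The EGF libraries were deeper than the controls, and counting error is smallest for abundant genes; intervals on counts cover counting error only.

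Named were the 15 largest rises and 10 largest falls among calls whose groups did not overlap, the 5 largest gains and losses in CPM, called members of 24 gene lists (up to 6 each), up to 2 uncalled members a list for their role, and ETV5, ETV4, GPR50 and EGR1. For the comparisons with 24 h and AII, the 5 largest calls in each direction were named. Results on a few genes that these rules chose are not reported here. Members, lists and tests were chosen with earlier results of these data known. Gene symbols were matched by Ensembl ID, and positions and promoters come from RefSeq (GRCh38.p14), matched by symbol. Of the 36 called genes so chosen, 35 matched, and 21 overlapped another RefSeq gene, none of which was called; reads of overlapping or near-identical genes cannot be assigned with certainty.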

Additional observations from a re-analysis of the deposited data

Results flagged for a closer look

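A wide gap to the other libraries of a group was found in 10 of 53 groups of values tested, where chance gives about 1 in 20. Among the libraries compared, 2 of the 36 called genes named had a control past the limit, which is near that rate. EGR1 was lowest in control 6 h replicate 6, at 4.44 CPM, and VCL stood apart in control 6 h replicate 4, at 141.9 CPM. Both genes kept EGF libraries above every control.

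The other gaps were in libraries of runs 7 and 8 (blocks of consecutive titles) from other groups. Only ETV5, EGR1, GPR50 and NAB2 were examined there, and values of several genes in 1 library are not independent. The library labelled AII 6 h replicate 6 held 50.7 CPM of ETV5, 40.8 CPM of EGR1, 20.8 CPM of GPR50 and 73.1 CPM of NAB2, all high for that group. The library labelled AII+EGF 6 h replicate 6 held 7.57 CPM of ETV5, 3.71 CPM of GPR50 and 13.3 CPM of NAB2, all low for its group, and the library labelled AII+EGF 24 h replicate 6 held 0.998 CPM of ETV5. Whether labels were exchanged was not tested.

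The EGF response differed between 6 h and 24 h, by a test of the difference, for SCARA3 in the fit of 40 libraries (log2 difference 1.10). Without title runs 7 and 8 it differed for 25 of the genes named. These genes had been called on the same 6 h libraries, which favours a larger change at 6 h in advance. The log2 differences, 6 h minus 24 h, were 2.02 for EGR1, 1.60 for EGR3, 1.99 for NAB2 and 1.16 for CSRNP1 among nuclear factors and their partner, with 1.58 for BATF3 and 0.92 for LBH. The differences were 2.26 for GPR50, 3.46 for GABBR2, 2.82 for CPLX1, 1.95 for CCNA1, 1.77 for ZCCHC12 and 1.57 for PPP2R2C. For secreted and membrane proteins they were 1.65 for TGFB1, 0.97 for EPHA2, 1.03 for EPHB2, 1.55 for CAVIN1 and 1.06 for SCARA3. For metabolic genes and EPAS1 they were 1.77 for SLC2A1, 1.04 for PFKP, 0.89 for AK4 and 0.93 for EPAS1, and for the RAS inhibitors 0.84 for SPRED2 and 0.68 for SPRED1. The called falls PROB1 and AMZ2P1 had differences of -1.20 and -0.82.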

How the results depend on the processing

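The log2 changes of the 36 called genes that the naming rule chose kept their sign in all 720 values under the alternatives run, and 587 of these stayed past the adjusted p threshold. In these genes the groups did not overlap and most alternatives reused the same libraries, so a change of sign was hardly possible. The number of calls (121) was less stable. It was 243 at an adjusted p under 0.05, 189 with DESeq2, 76 with library totals without factors (which moved the median of all genes to -0.11), 384 with the 7 libraries alone, 514 with DESeq2 on these, 508 with all 48 libraries, 381 without title runs 7 and 8, 449 without the libraries of these runs outside the 2 groups, and 46 to 75 when 1 of the 7 libraries was left out. Of all genes under that rule, 64 were called with the 7 libraries, 70 with DESeq2 on these, 57 with all 48 libraries, 64 without runs 7 and 8, 67 without those of these runs outside the 2 groups, and 15 to 25 with 1 library left out. For the 6 h minus 24 h response, the 1 call became 29 with DESeq2, 12 with no filter, 55 with the 4 groups alone, 260 without runs 7 and 8, and 0 to 4 with 1 library left out. For EGF against AII, the 13 calls became 24 with DESeq2, 20 with no filter, 6 with the 2 groups alone, 177 without runs 7 and 8, and 7 to 46 with 1 library left out, 46 of them without AII 6 h replicate 6.

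Replicate numbers name libraries and do not pair them. With the run of titles as a replicate block in a fit of the 7 libraries, 359 genes were called, 64 of them under that rule. Thinning the EGF libraries to the depth of the controls left 112 calls. Thinning, DESeq2 on the 7 libraries and the fit without runs 7 and 8 outside the 2 groups were chosen after seeing the data. Called falls numbered 3 in the 40-library fit and 82 in the 7 libraries alone. The causes of these differences were not tested.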
